A study of Mus musculus with 8 samples.

Results

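Parathyroid hormone, 2 further genes that mark parathyroid cells, the shared hormone receptor and parathyroid hormone related protein were followed across 8 mouse RNA libraries. They are Pth, Gcm2, Casr, Pth1r and Pthlh, which the deposited table of 16119 genes lists in capitals as PTH, GCM2, CASR, PTH1R and PTHLH, and all 5 were found there by symbol. They were chosen by their levels over these 8 libraries, since Pth had been seen in thyroid tissue and Pthlh in thyroid follicular cell organoids (TFCOs). Their difference between TFCOs and thyroid tissue is therefore described without a test. TFCOs are cultures of thyroid epithelium grown in basement membrane extract with R-spondin, the TGFβ receptor inhibitor A83-01, forskolin (an activator of cAMP production), EGF and FGF10. All libraries came from wild-type C57BL/6 mice. The 4 TFCO libraries stem from only 2 lines, mThy14 and mThy16, with an early and a late passage of each. They were compared with 2 thyroid tissues and 2 lung tissues. Cells of a single mouse thyroid were plated to start a culture, and ages were not given in the sources used here.

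Parathyroid hormone is made by the chief cells of the parathyroid glands, which lie beside or within the thyroid, and it raises blood calcium by acting on bone and kidney. The transcription factor Gcm2 is required for parathyroid glands to form, and the calcium-sensing receptor Casr lets chief cells sense blood calcium, although Casr is also known from C cells and kidney. Parathyroid hormone related protein, encoded by Pthlh, is a local factor of cartilage, skin, mammary gland and lung epithelium. Its first residues resemble those of parathyroid hormone, and both ligands act on the receptor encoded by Pth1r, which signals mainly through cAMP.

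Each library held between 9755081 and 16904865 reads on genes, and 3 reads correspond to 2.02 to 4.22 normalized counts. The unit throughout is the normalized count, the reads on a gene divided by a size factor of the library. Before any gene is compared, a split of the libraries into 2 sets must be given, since it runs through the groups. Thyroid tissue 1 and the TFCOs all had 50 or more normalized counts of 44 genes that were at 0 in the other 3 tissues, and 16 genes showed the reverse. None of the 5 genes was among these. TFCOs shared their set only with thyroid tissue 1, and all lung libraries lay in the other set, so that set and organ cannot be told apart when TFCOs are set beside lung. The thyroid tissues carried thyroid RNA: the 10 follicular cell markers, such as Tg, summed to 1559680 and 2231910 normalized counts in the tissues, 22239 to 175887 in TFCOs and at most 3280 in lung.

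The mouse genes of these symbols were located in GENCODE M21 on the build GRCm38. They are on separate chromosomes, all on the minus strand. Pth spans 113385580 to 113388570 on chromosome 7, Gcm2 41101427 to 41111035 on chromosome 13 and Casr 36493696 to 36562141 on chromosome 16. Pth1r spans 110722085 to 110747145 on chromosome 9 and Pthlh 147252101 to 147264183 on chromosome 6. Of the stretches of 50 bases in the longest coding transcript of each gene, 0% occurred in a transcript of another mouse gene, so that none of the 5 shares such a stretch with a near copy.

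The promoters of Pth, Gcm2, Casr and Pthlh are shown because the gene seen in TFCOs and the genes seen in tissue differ in base composition there. That of Pth1r is not shown, so the contrast sets Pthlh alone against Pth, Gcm2 and Casr. The 250 bases before the RefSeq start site (GRCm38.p6) are given 5′ to 3′ on the strand of the gene. RefSeq and GENCODE starts differ. The Gcm2 window lies wholly inside the GENCODE span of Gcm2, whose 5′ end is at 41111035. The Pthlh window lies partly inside that of Pthlh (5′ end 147264183), and the Casr window overlaps its span at the edge (5′ end 36562141). Positions and base composition therefore hold for the RefSeq start only. Capitals mark exact matches, on either strand, to a TATA box (TATAAA), a full cAMP response element (TGACGTCA) or the shorter TGACG that lies within it, a GCM motif (ATGCGGGT), a GATA motif (AGATAA) or a GC box (GGGCGG).
Pth, chr7:113388574-113388823, minus strand: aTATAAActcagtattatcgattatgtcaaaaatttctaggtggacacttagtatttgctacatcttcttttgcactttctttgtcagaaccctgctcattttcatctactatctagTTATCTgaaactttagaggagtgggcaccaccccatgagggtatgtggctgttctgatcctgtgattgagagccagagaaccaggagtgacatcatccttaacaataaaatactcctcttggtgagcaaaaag
Gcm2, chr13:41109989-41110238, minus strand: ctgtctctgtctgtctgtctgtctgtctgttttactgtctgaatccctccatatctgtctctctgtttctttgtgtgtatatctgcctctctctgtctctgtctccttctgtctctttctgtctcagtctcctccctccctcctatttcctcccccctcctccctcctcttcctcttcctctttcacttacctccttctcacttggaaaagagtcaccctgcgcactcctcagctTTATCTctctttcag
Casr, chr16:36562135-36562384, minus strand: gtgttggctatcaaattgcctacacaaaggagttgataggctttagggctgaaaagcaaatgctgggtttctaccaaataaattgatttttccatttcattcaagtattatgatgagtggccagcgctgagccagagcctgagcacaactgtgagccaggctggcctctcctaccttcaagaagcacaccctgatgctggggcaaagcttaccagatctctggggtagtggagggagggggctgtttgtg
Pthlh, chr6:147264014-147264263, minus strand: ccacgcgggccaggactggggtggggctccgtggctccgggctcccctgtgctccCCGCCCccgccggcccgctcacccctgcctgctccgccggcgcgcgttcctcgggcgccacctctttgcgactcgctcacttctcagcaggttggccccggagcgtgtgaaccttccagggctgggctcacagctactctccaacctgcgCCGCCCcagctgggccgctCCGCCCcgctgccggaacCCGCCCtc
The Pthlh promoter was 75.2% G and C and held 26 CpG pairs, against 39.2% for Pth and 48.8% for Gcm2 and for Casr, with 1 CpG each. Over 32851 mouse promoter windows of the same length, the median was 52.4% G and C with 6 CpG. Of these windows, 96.1% were lower in G and C than Pthlh, 36.6% than Gcm2 and than Casr, and 10.3% than Pth. Pthlh carried 4 GC boxes, a motif found in 32.7% of windows. Pth carried a TATA box letter match, which ends 244 bases before the start and is found in 12.4% of windows, and a GATA match. The Gcm2 window held a GATA match as well, from 15 to 10 bases before the RefSeq start, and 9.99% of windows hold one. No letter match to either cAMP response element (1.55% of windows for the full and 17.8% for the shorter element) or to the GCM motif (0.207%) was in these windows, and Casr held no match to any of these motifs. A match of letters is a description and not a bound site.

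Pth RNA was abundant in both thyroid tissues and was not counted in a TFCO library. Thyroid tissue 1 held 8411 normalized counts of Pth and thyroid tissue 2 held 25341 (16876 ± 11972, SD, n = 2), but 0 reads in each of the 4 TFCO libraries. In lung, Pth was at 0 in tissue 1 and at 4.04 normalized counts, from 6 reads, in tissue 2. The hormone gene thus took 0.0664% of the reads on genes in thyroid tissue 1 (95% exact binomial interval 0.0649% to 0.0679%) and 0.200% in thyroid tissue 2 (0.198% to 0.203%). Such intervals cover counting error only. With 3 reads as the limit that a count of 0 allows in each library, Pth was at least 1995-fold lower than thyroid tissue 1 in early mThy14 TFCOs, where that limit is highest, and at least 2508-fold lower in the other 3 TFCO libraries. Thyroid tissue 1, where Pth was counted, shares the set of the TFCOs, but it is a single library. The part of the set in the level of Pth was not tested. In bulk tissue, fewer cells of a type and less RNA per cell cannot be told apart.

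Gcm2 and Casr followed Pth at lower levels. Gcm2 had 114 and 133 normalized counts in thyroid tissues 1 and 2 (124 ± 13.1, SD, n = 2). In TFCOs it had 4.22 and 8.33 normalized counts in mThy14 at early and late passage, and 0 and 10.1 in mThy16. All 4 TFCO values, which rest on 0 to 9 reads, lay below both tissues, with a mean 21.9-fold lower. Lung tissues 1 and 2 held 3.35 and 0.674 normalized counts of Gcm2, from 4 reads and 1 read, so that TFCOs and lung overlapped.

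Casr had 1286 and 522 normalized counts in thyroid tissues 1 and 2 (904 ± 540, SD, n = 2). In TFCOs it had 18.3 and 18.7 in mThy14 at early and late passage, and 7.92 and 4.47 in mThy16, a mean 73.2-fold lower than in thyroid tissue. Every TFCO library was below both thyroid tissues. Lung tissues had 1.68 and 2.70 normalized counts from 2 and 4 reads, and the lowest TFCO library also rested on 4 reads.

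Pth1r, the receptor of both ligands, was low in TFCOs and similar in the 2 organs. It had 93.6 and 66.4 normalized counts in thyroid tissues (80.0 ± 19.3, SD, n = 2) and 81.2 and 64.7 in lung tissues (73.0 ± 11.7, SD, n = 2), and the values of the 2 organs overlapped. TFCOs held 15.5 and 7.29 in mThy14 at early and late passage and 0.99 and 5.59 in mThy16, from 1 to 11 reads. The TFCO mean was 10.9-fold lower than thyroid and 9.95-fold lower than lung, and the TFCO libraries overlapped neither organ.

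Pthlh showed the opposite order. TFCOs of mThy14 had 2464 normalized counts at early and 4920 at late passage, and those of mThy16 had 1350 and 1321. The thyroid tissues had 17.4 and 8.30 (12.9 ± 6.45, SD, n = 2) and the lung tissues 15.9 and 33.0 (24.5 ± 12.1, SD, n = 2). The lowest TFCO library lay 75.9-fold above the higher thyroid tissue and 40.0-fold above the higher lung tissue. The TFCO mean of 2514 was 196-fold that of thyroid tissue. Thyroid and lung overlapped for Pthlh, with 9 to 49 reads per tissue library, as did early (1907 ± 788, SD, n = 2) and late TFCOs (3121 ± 2545, SD, n = 2), and only the order of TFCOs above both organs held in every library.

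**Figure D1:**
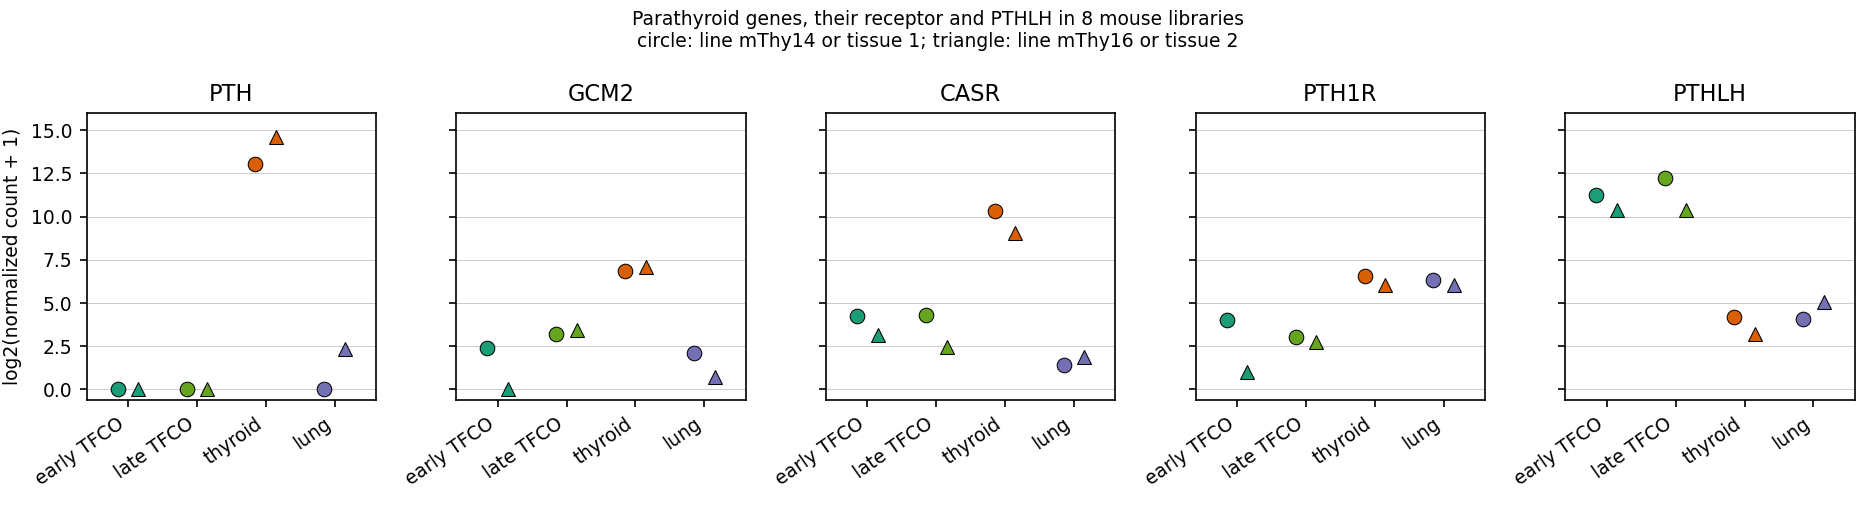
Levels of the 5 genes in each of the 8 libraries, as log2(normalized count + 1), with circles for line mThy14 or tissue 1 and triangles for line mThy16 or tissue 2. Pth, Gcm2 and Casr sit highest in the 2 thyroid tissues, Pth1r is high in both organs, and Pthlh sits between 1321 and 4920 normalized counts in TFCOs and at or below 33.0 in every tissue.

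On the log2(normalized count + 1) scale, with the passages of a line averaged, the difference between TFCOs and thyroid tissue was -13.83 for Pth, -6.13 for Casr (standard error 0.95), -4.69 for Gcm2 (standard error 1.00), -3.62 for Pth1r (standard error 0.91) and 7.37 for Pthlh (standard error 0.80). The value for Pth depends on the added 1, because TFCOs are at 0. With thyroid tissue 1, of the same set as the TFCOs, as the sole reference, the difference was -6.78 for Casr, -4.58 for Gcm2, -3.86 for Pth1r and 6.87 for Pthlh. The choice of the genes fixed these directions: 4 of the 5 had every TFCO library below both tissues, as had 17.3% of the 14703 genes tested, and 1 had every TFCO library above them, as had 17.2%. All 5 passed the filter of 10 normalized counts in at least 2 libraries. Pth passed it only through thyroid tissue, and Gcm2 would not have passed it without thyroid tissue.

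Per length of the longest coding transcript, the 2 ligands dominated in different samples. Pth reached 11846 and 35692 normalized counts per kb in the thyroid tissues, where Pthlh stood at 10.9 and 5.18 per kb, below Pth1r at 40.6 and 28.8 per kb. In TFCOs, Pthlh stood at 824 to 3069 per kb and Pth1r at 0.429 to 6.70 per kb. The ligand was therefore the lower of the pair in thyroid tissue and the higher in every TFCO library. The order of Pthlh and Pth1r was the same without division by length. Dividing by length fits reads from along the transcript, as of the stranded mRNA kit in the methods, and not the 3′ end reads of the CEL-Seq protocol in the labels, and which of them was used is not settled here. Casr reached 284 and 115 per kb in the thyroid tissues and Gcm2 37.2 and 43.2 per kb.

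The parathyroid genes did not differ between the thyroid tissues in one direction. Pth was 3.01-fold higher in tissue 2 than in tissue 1, and Gcm2 was at 1.16 times its level in tissue 1, whereas Casr was at 0.406 times. The ratio of Pth to Casr per kb was 41.8 in tissue 1 and 310 in tissue 2, and that of Pth to Gcm2 was 318 and 826. Without division by length, the ratio of Pth to Casr was 6.54 and 48.6 and that of Pth to Gcm2 73.6 and 191. The change of Pth to Casr between the tissues, 7.42-fold, does not depend on length. Other genes known from chief cells were split as well. Chga, a secretory granule protein of chief cells and C cells, was at 1.63 times its tissue 1 level in tissue 2, whereas Gata3, a transcription factor of parathyroid development, was at 0.361 times. Calca, which encodes calcitonin of C cells, was at 1.83 times. Each value compares 1 library with 1 library, and because the 2 tissues lie in different sets, the tissue sample and the set cannot be told apart.

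**Figure D2:**
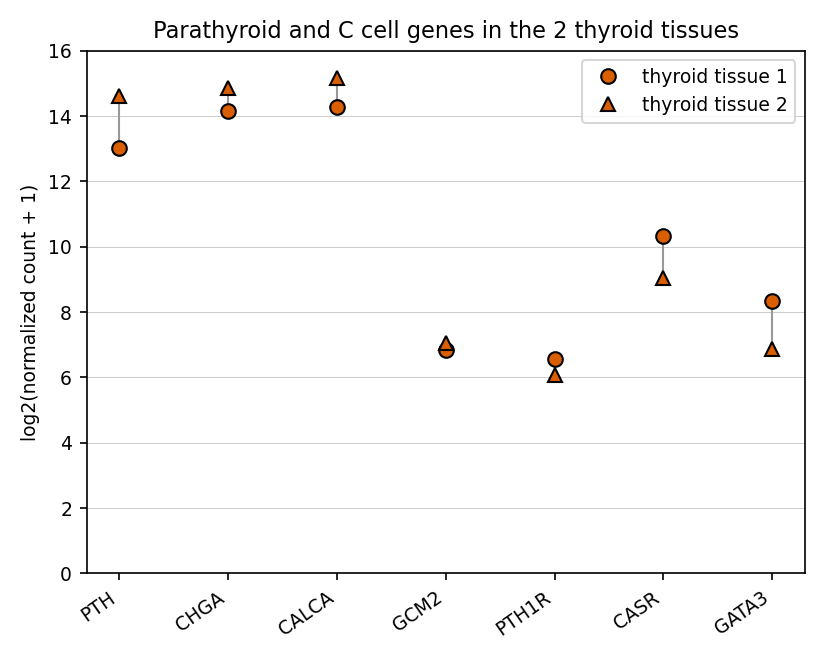
Levels in thyroid tissue 1 (circles) and thyroid tissue 2 (triangles), as log2(normalized count + 1), joined by a line per gene. Pth, Chga and Calca are higher in tissue 2, whereas Casr and Gata3 are higher in tissue 1, and Gcm2 differs by 1.16 times.

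Markers of C cells, skeletal muscle, stroma and endothelium were mostly higher in the thyroid tissues than in TFCOs, whereas most thymus markers were not. Over the 6 parathyroid markers, among them Pth, Gcm2, Casr, Chga and Gata3, the sum was 29856 and 56760 normalized counts in the tissues, 434 to 975 in TFCOs and 192 to 260 in lung, and 5 of the 6 were higher in both tissues than in every TFCO library. Pth, Gcm2 and Casr were chosen for such levels, so this sum and count are no separate evidence. All 7 skeletal muscle markers were higher in both tissues, with sums of 52489 and 154160 against 2004 to 2683 in TFCOs, as were all 7 stromal and endothelial markers, with sums of 19427 and 20745 against 427 to 665. Of 7 C cell markers, 6 were higher, with sums of 48968 and 76649 against 93.1 to 181. Calcb was the exception, at 1.84 normalized counts in thyroid tissue 2. Of 9 thymus markers, 1 was higher in both tissues, and the sums were 312 and 179 against 183 to 219 in TFCOs. That marker was Foxn1, at 99.1 and 98.7 in the tissues and 97.3 in late mThy16 TFCOs. Among all genes tested, every TFCO library lay below both tissues for 17.3%. The part of these cell types in the levels of Casr, Chga and Pth1r was not tested.

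Whether the genes change with passage was tested, since passage had no part in choosing them. Of the 14703 genes tested, 0 passed (0% called, limma with Benjamini-Hochberg adjustment, threshold 0.05) and 166 (1.13%) had an unadjusted p under 0.05. With limma's voom on the reads, 0 passed and 84 had an unadjusted p under 0.05. Pthlh had a late-to-early log2 difference of 0.48 (standard error 0.75, limma adjusted p = 1), which is within the spread between lines. In mThy14 it went from 1753 reads to 4727 reads, 2.00 times the early normalized count, and in mThy16 it was at 0.979 times. The lines differed at both passages: mThy14 held 1.83 times the Pthlh of mThy16 at early passage and 3.72 times at late passage. Gcm2 had a log2 difference of 2.15 (standard error 1.12, limma adjusted p = 1), from 3 and 0 reads at early and 8 and 9 reads at late passage in mThy14 and mThy16. That of Pth1r was 0.37 (standard error 1.13) and that of Casr -0.34 (standard error 1.03), both at a limma adjusted p of 1. Pth was at 0 reads at both passages in each line. The smallest two-sided p that an unpaired exact permutation test of 2 late and 2 early libraries allows is 0.333. Like the limma fit above, such a test leaves the pairing by line aside.

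Genes around the receptor and the ligands were taken from 7 lists of 84 genes, and all 84 were in the table. Of the 81 tested between TFCOs and thyroid tissue, 7 were lower and 1 was higher in TFCOs (limma adjusted p under 0.05 over all genes), against 3.05% lower and 0.599% higher among all genes tested. The median log2 difference was 0.24 over the 81 genes and 0.05 over all genes. Between late and early TFCOs 0 of the 81 passed the test, and 0 of them had an unadjusted p under 0.05.

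Of the 12 transcription factors and regulators of parathyroid development, 2 were lower in TFCOs and 0 higher, against 3.05% and 0.599% of all genes. The median log2 difference was -1.02. Gata3, which acts upstream of Gcm2, stood at 324 and 117 normalized counts in thyroid and 3.12 to 21.1 in TFCOs (log2 difference -4.33, standard error 0.79, limma adjusted p = 0.0341). Gata3 was also present in lung, at 116 and 95. Eya1, a transcriptional cofactor of the pharyngeal pouches, had 147 and 193 in thyroid and 2.97 to 22.4 in TFCOs (log2 difference -3.94, standard error 0.75, limma adjusted p = 0.0389). Pax9, which is needed for the pharyngeal pouch glands, was at 243 to 682 in TFCOs and 284 and 190 in thyroid tissue and did not pass (limma adjusted p = 0.604). Hoxa3, Tbx1 and Pax1 did not pass either, with adjusted p-values from 0.367 to 0.395 in the same limma fit.

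Of the 10 genes of parathyroid function and growth, 3 were lower in TFCOs and 0 higher, against 3.05% and 0.599% of all genes. The median log2 difference was -1.16. Chga and Ret, called here, are also among the C cell markers above. Chga stood at 18303 and 29918 normalized counts in thyroid and 15.8 to 84.3 in TFCOs (log2 difference -9.17, standard error 0.68, limma adjusted p = 0.00188). Kl, the co-receptor through which FGF23 acts on parathyroid and kidney, had 1000.4 and 772 in thyroid tissue, 0 to 21.2 in TFCOs and 12.6 and 14.8 in lung (log2 difference -6.74, standard error 0.84, limma adjusted p = 0.0103). Ret, a receptor tyrosine kinase of C cells that is mutated in familial endocrine tumours, had 974 and 1236 in thyroid and 22.5 to 114 in TFCOs (log2 difference -4.62, standard error 0.59, limma adjusted p = 0.0109). The vitamin D receptor Vdr, which restrains Pth transcription, was at 141 to 625 in TFCOs and 474 and 671 in thyroid tissue (limma adjusted p = 0.448). The parathyroid tumour suppressors Men1 and Cdc73 did not pass either (limma adjusted p = 0.446 and 0.575).

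Of the 11 partners of Casr, 0 passed the test in either direction, and the median log2 difference was -0.07. The differences ran from -4.67 to 1.02. Every TFCO library lay below both tissues for 3 of the 11, as for 17.3% of all genes, and above both for 2, as for 17.2%. The G proteins that Casr couples to were expressed in TFCOs: Gnaq was at 1199 to 2087 normalized counts in TFCOs and 1536 and 1244 in thyroid tissue, and Gna11 at 586 to 792 and 659 and 1126. Ap2s1, the adaptor subunit that moves Casr from the membrane, was at 1949 to 2438 in TFCOs and 1876 and 902 in thyroid tissue (limma adjusted p = 0.392).

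Of the 8 genes of Pth mRNA stability and hormone processing, 0 passed, and the median log2 difference was 0.66. Furin, a protease that cleaves the propeptides of both hormones, was at 4531 to 6218 normalized counts in TFCOs, above the 3184 and 1421 of thyroid tissue (log2 difference 1.32, standard error 0.46, limma adjusted p = 0.194). Of these 8 genes, 6 had every TFCO library above both tissues, as had 17.2% of all genes. Khsrp and Hnrnpd, RNA-binding proteins that act on Pth mRNA, were among the 6, with log2 differences of 0.84 and 1.23 (limma adjusted p = 0.299 and 0.284).

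Of the 20 genes of receptor signalling, 19 were tested, and the median log2 difference was 0.00. In TFCOs 2 were lower and 0 higher, against 3.05% and 0.599% of all genes. Ramp2, an accessory protein that binds the Pth1r receptor, had 287 and 364 normalized counts in thyroid tissue, 3103 and 6071 in lung and 0.99 to 11.2 in TFCOs (log2 difference -5.78, standard error 0.74, limma adjusted p = 0.0109). Ramp2 is also abundant in endothelium, whose markers moved with it. Mef2c, a transcription factor downstream of parathyroid hormone signalling in bone and also a muscle and endothelial gene, had 524 and 972 in thyroid and 7.83 to 25.3 in TFCOs (log2 difference -5.28, standard error 0.59, limma adjusted p = 0.00761). The part of muscle and endothelial RNA in these differences was not tested. The general cAMP machinery was present in TFCOs at levels that overlapped thyroid tissue: Gnas was at 25619 to 36195 in TFCOs and 78366 and 20682 in thyroid, and Prkaca at 2019 to 3786 and 2778 and 1719. The second receptor of this family, Pth2r, had at most 27.9 normalized counts in a library and did not pass the filter.

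Of the 11 hedgehog and TGFβ genes that form a loop with Pthlh in cartilage, 0 passed, and the median log2 difference was 0.26. Ihh, the ligand that raises Pthlh in the growth plate, was at 342 and 69.7 normalized counts in mThy14 at early and late passage and at 66.3 and 70.4 in mThy16, at 10.9 and 0 in thyroid tissue and at 2.51 and 4.04 in lung (log2 difference 4.91, standard error 1.34, limma adjusted p = 0.109). Every TFCO library thus lay above each tissue for Ihh. The hedgehog receptor Ptch1, itself a hedgehog target, was at 585 to 1811 in TFCOs and 845 and 266 in thyroid tissue, and the target Gli1 at 35.8 to 121 and 176 and 13.8, so that both overlapped.

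**Figure D3:**
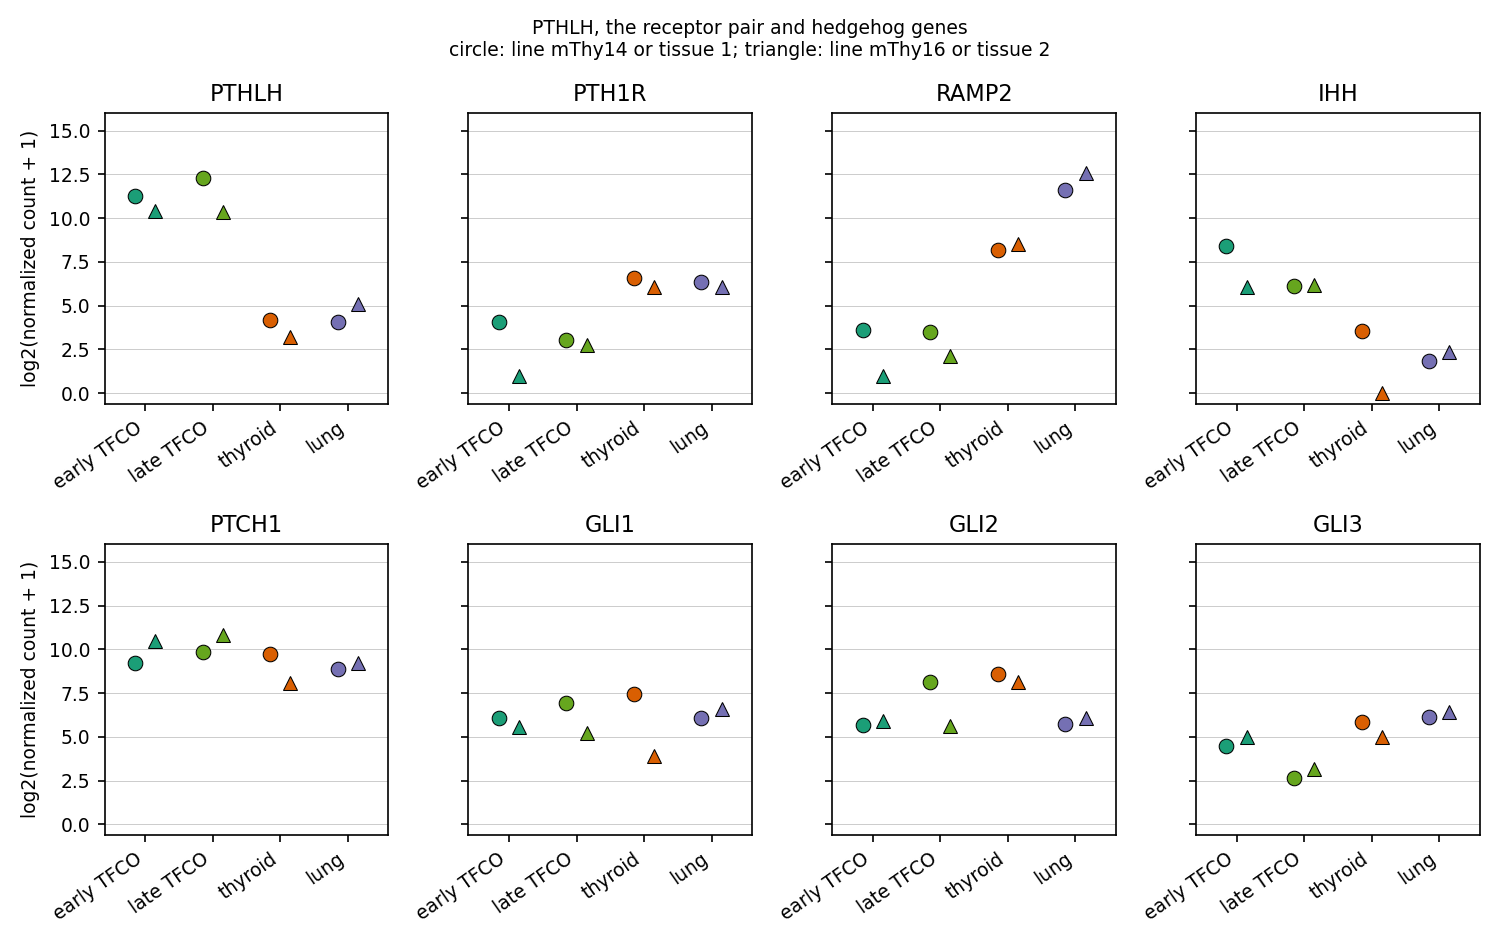
Levels of Pthlh, its receptor Pth1r, the accessory protein Ramp2 and 5 hedgehog genes in each of the 8 libraries, as log2(normalized count + 1), with symbols as in the plot of the 5 genes. Pthlh and Ihh are highest in the 4 TFCO libraries, and Pth1r and Ramp2 are lowest there, whereas Ptch1 and Gli1 overlap between TFCOs and thyroid tissue.

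Of the 12 genes that parathyroid hormone controls in kidney and bone or that carry calcium and phosphate, 10 were tested. In TFCOs 1 was higher and 0 lower, against 0.599% and 3.05% of all genes. The median log2 difference was 1.46. Slc34a2, the phosphate transporter of alveolar type 2 cells, was at 970 to 11119 normalized counts in TFCOs, 9.80 and 70.1 in thyroid tissue and 32213 and 22898 in lung (log2 difference 7.03, standard error 0.80, limma adjusted p = 0.00781). Slc34a1 and Trpv5 were among the genes that separate the 2 sets of libraries. They were at 123 and 94.7 in thyroid tissue 1 and at 0 in thyroid tissue 2 and lung, and TFCOs held 373 to 2096 and 68.7 to 551. The test set both tissues against TFCOs, so the 0 of tissue 2 enters their log2 differences of 6.24 and 4.58 (limma adjusted p = 0.166 and 0.288) and the median of the list. Cyp27b1, the vitamin D activating enzyme that the hormone raises in kidney, was at 18.8 to 98.4 in TFCOs and 62.1 and 60.8 in thyroid tissue.

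**Figure D4:**
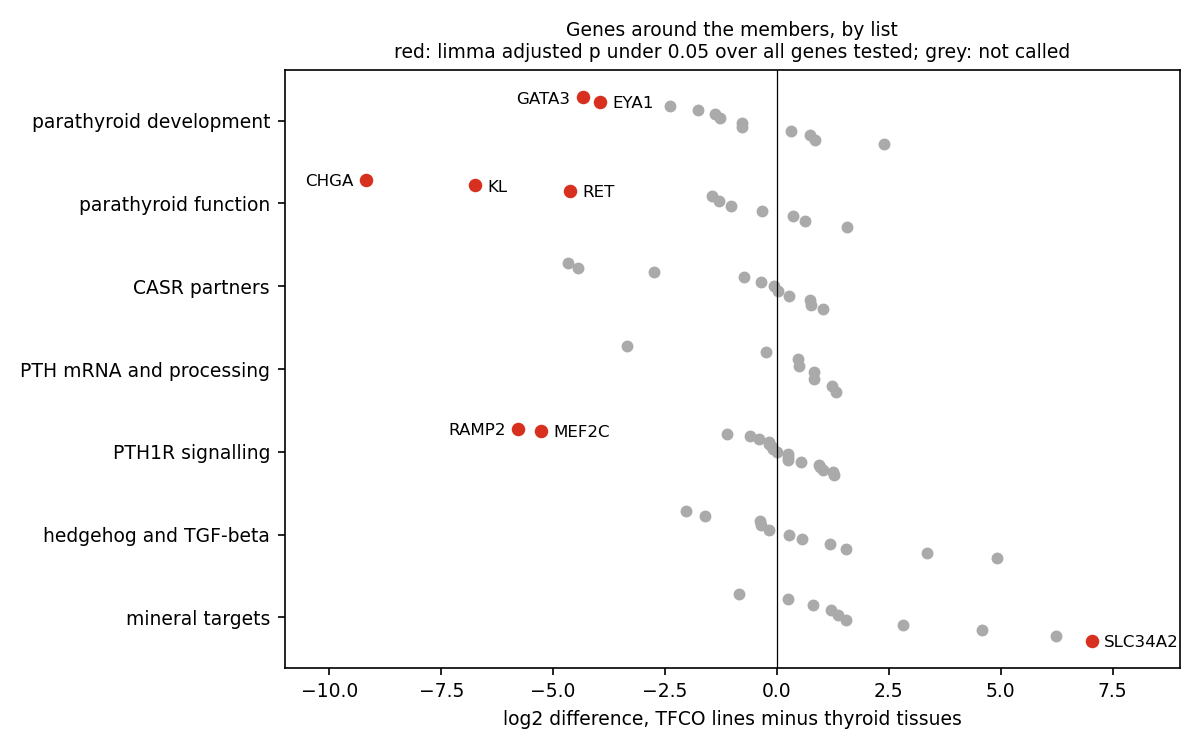
Log2 difference between TFCO lines and thyroid tissues for the 81 genes tested, 1 point per gene and 1 row per list, with red for an adjusted p under 0.05. Chga lies farthest to the left at -9.17 and Slc34a2 farthest to the right at 7.03, and most points lie near 0.

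Of the 8 genes called, Gata3, Chga, Kl and Slc34a2 remained without thyroid tissue 2 (limma adjusted p from 0.0232 to 0.0483) and the other 4 did not. With limma's voom on the reads, Chga, Kl, Ret and Slc34a2 remained (adjusted p from 0.0318 to 0.0414), whereas Gata3 (0.122), Eya1 (0.0819), Ramp2 (0.0764) and Mef2c (0.0582) did not. The log2 differences of all 8 kept their sign in both. Leaving out a tissue leaves 1 thyroid library, which is then assumed to vary like the other groups. Without thyroid tissue 1, the only tissue in the set of the TFCOs, the 8 genes also kept their sign. Their log2 differences then ran from -9.53 for Chga to 5.67 for Slc34a2.

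Over the 8 libraries, the 5 genes whose levels ran most like Pth by Pearson's r included Tnnt3 (0.988), Paqr5 (0.987), S100a5 (0.979) and Lancl2 (0.978), of 12445 genes compared. Tnnt3, a troponin of fast skeletal muscle, stood at 5493 and 20016 normalized counts in thyroid and 11.2 to 53.9 elsewhere. S100a5, a calcium-binding protein, was at 119 and 59.0 in the thyroid tissues and at 0 in the other 6 libraries. Lancl2 differed far less in size, at 383 and 366 in the thyroid tissues against 240 to 264 elsewhere. Those most like Pthlh were Csnk1d (0.994), Spred1 (0.982), Lgi2 (0.978), Slc35f5 (0.977) and Lhx2 (0.977). Lgi2 had 516 to 2181 normalized counts in TFCOs, with the highest value in late mThy14 TFCOs as for Pthlh, and 22.1 to 86.3 in tissues. Lhx2, a homeobox transcription factor, was at 114 to 498 in TFCOs and at most 2.18 in a tissue. Csnk1d and Spred1 differed far less in size, at 2995 to 3522 and 2666 to 3463 in TFCOs against 1983 to 2234 and 1400 to 1687 in tissues. The 8 points share lines and organs, and r describes these libraries only.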

How the data were processed

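Bulk RNA was sequenced from 4 TFCO libraries, 2 thyroid tissues and 2 lung tissues, which were grouped by their titles. The authors deposited 1 table of signal values, which are normalized counts, reads per gene divided by a size factor per library. The methods name a stranded mRNA kit, the mouse genome and DESeq2 by the authors. The labels describe an adapted CEL-Seq library and list BWA 0.6.2-r126 with the builds hg38 and mm10, and the table lists genes by symbols in capitals, so that the reference used for each library is not known. Values were whole multiples of 1 step per library (100% of values above 0 within 0.01), which gave reads.

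log2(normalized count + 1) was fitted by limma (version 3.58.1, R version 4.3.3) with a mean-variance trend. The 14703 genes that reached 10 normalized counts in 2 libraries were tested, with Benjamini-Hochberg adjustment. Passage was tested over all 8 libraries. TFCOs were compared with thyroid tissue after averaging the passages of a line. The fits were tested on simulated counts, drawn independently for each library. The simulation held no line effect and no split into sets, so it does not show how the fits behave with these. Lines pair the early and late libraries, since the titles name the same line, and the line differences at both passages correlated at 0.477 across genes. Replicates are biological per the labels.

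The genes and the lists were chosen with earlier results of these data known. Named genes were the 5 genes, genes of the lists that passed or touch a member directly, cell type markers, and the 5 genes most like Pth and Pthlh by Pearson's r among genes that reached 50 normalized counts in 2 libraries. The alternatives tried were pseudocounts of 0.5 and 5, filters, scalings, no trend, a replicate block, TFCO libraries as separate samples and leaving out each library. A voom fit on the recovered reads was chosen after seeing the data. No count model was run. Promoter sequences are from RefSeq (GRCm38.p6), and 4 of the 5 genes are shown. Protein sequences were not used here. Some genes of the lists and of the genes most like Pth are not reported here by name, and they remain in the counts and sums.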

Additional observations from a re-analysis of the deposited data

Results flagged for a closer look

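Pthlh was higher at late than at early passage in mThy14 and nearly level in mThy16, so that the signs of the 2 differences differ. Its late-to-early log2 difference was 1.00 in mThy14, from 2464 to 4920 normalized counts, and -0.0307 in mThy16, from 1350 to 1321. Each line has 1 library per passage, so that the difference between the lines was not tested. Groups of 2 libraries were too small for a check of single libraries that stand apart.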

How the results depend on the processing

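The difference of each of the 5 genes between TFCOs and thyroid tissue kept its sign under every alternative run. The choice of the genes fixed these signs, since every TFCO library lay on the same side of both tissues, so that this is no separate evidence. For Pth there is no value without thyroid tissue 1 or without thyroid tissue 2, because it did not pass the filter there. The difference ranged from 6.87 to 7.86 for Pthlh, -6.78 to -5.49 for Casr, -5.56 to -3.71 for Gcm2, -4.05 to -2.90 for Pth1r and -14.83 to -11.51 for Pth, where the pseudocount sets the value. Late-to-early differences were called under none. Leaving out each library, they ranged from -0.46 to 1.43 for Pthlh, -1.16 to 1.89 for Pth1r, -1.26 to 0.59 for Casr and 0.96 to 3.34 for Gcm2. The sign turned without late mThy14 TFCOs for Pthlh (-0.46), without early mThy16 for Pth1r (-1.16), and without early mThy14 (0.22) or late mThy16 (0.59) for Casr.

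With the line as a replicate block, which pairs the passages, 0 genes passed and 382 had an unadjusted p under 0.05, and no call changed. Leaving out each library gave 0 to 2 genes, the 2 without late mThy16 TFCOs. Between TFCOs and thyroid tissue, 536 genes were called. With 4 TFCO libraries as separate samples there were 1322, and 15 of the list genes in place of 8, and with voom 92 and 4. Leaving out each library gave 143 to 4026 genes and 4 to 27 list genes, with 4026 and 27 without thyroid tissue 1, 143 and 4 without thyroid tissue 2, and 187 and 184 genes without lung tissues 1 and 2. The causes were not tested. Quantile normalization moved the median difference of all genes from 0.05 to 0.17. Low reads limit Gcm2, Casr and Pth1r in TFCOs, at 18 reads or fewer. Planned count models were not run.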

Other observations

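Lung held few reads of the parathyroid genes. Pth had 0 reads in lung tissue 1 and 6 in lung tissue 2, Gcm2 had 4 and 1, and Casr had 2 and 4. Pth2, the ligand of the second receptor Pth2r, was at 16.3 normalized counts in thyroid tissue 1, at 1.04 to 13.4 in TFCOs and at 0 in the other 3 tissues. Pth2r was highest in late mThy16 TFCOs, at 27.9 normalized counts. Foxn1, a thymus transcription factor, was at 35.1 to 97.3 normalized counts in TFCOs, 99.1 and 98.7 in the thyroid tissues and 0 in both lung tissues.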
